A study of Mus musculus with 48 samples.

Results

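The genes described here are 39 transcripts that cells raise when they sense type I interferon, out of 29801 genes listed for the tibia of 12 male C57BL/6J mice. They were chosen by name as a known response group, with no threshold on a measured value but with earlier results of these data known, and each of the 39 symbols was found in the table and in the mouse annotation (GENCODE release 21, GRCm38, which is mm10). The list holds 5 sensors of foreign nucleic acid, 8 genes of signaling and feedback, 16 antiviral effectors, 4 genes of ADP-ribosylation and 6 others. Genes were tested where their level averaged 1 FPKM or more across all libraries, which held for 38 of the 39 genes among 13590 in the whole table. The exception was Ifi44, which was listed between 0.422 and 1.07 FPKM in 11 mice and at 3.29 in aged mouse 5 of the restricted group. FPKM counts sequenced fragments relative to transcript length and library size, so it can be compared between genes as a level per unit of length.

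Messenger RNA was sequenced from ground whole tibia, which holds bone, marrow, marrow fat and vessels together. Each of the 4 groups held 3 mice, all male C57BL/6J: young mice (10 weeks of age) fed ad libitum (AL), young mice under calorie restriction (CR), aged mice (15 to 18 months) fed AL and aged mice under CR. These ages are the ones the series gives for the start of the diet, and the mice were older at collection. The restriction lasted 8 weeks, with 10% less food in the first week, 20% in the second and 40% from the third week on, of a diet fortified with micronutrients, while AL mice received the matching standard diet. Tibial osteotomies were performed in mice of the study, and the labels do not say whether the sequenced tibiae had been operated. Mice were numbered 9, 10 and 11 (young AL), 1, 2 and 3 (young CR), 13, 14 and 15 (aged AL) and 5, 6 and 7 (aged CR), and values for single mice are given in that order throughout.

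Type I interferons are secreted proteins that bind a shared receptor on nearly all cells, where the kinases JAK1 and TYK2 activate STAT proteins. STAT2 and IRF9 are parts of a complex that binds a short DNA element, the interferon-stimulated response element, in front of the response genes. Blood-forming and immune cells keep a low standing level of this response even without infection. Mx1 and Mx2 are defective alleles in C57BL/6 mice, so here their transcripts report on the response and not on a working antiviral protein.

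Several genes are neighbors. The Ifit genes lie together on chromosome 19, from Ifit2 (chr19:34550694-34576419) over Ifit3 (chr19:34583531-34588731) and Ifit3b (chr19:34607970-34613401) to Ifit1 (chr19:34640871-34650009). Oas2 (chr5:120730333-120749853), Oas3 (chr5:120753098-120777661) and Oas1a (chr5:120896256-120907521) share a stretch of chromosome 5, and Rsad2 (chr12:26442746-26456452) lies beside Cmpk2 (chr12:26469204-26479837). Parp9 (chr16:35938470-35972605) and Dtx3l (chr16:35926511-35939151) overlap at their ends and lie on chromosome 16 with Parp14. Near-identical neighbors such as Ifit3 and Ifit3b can share reads, so how reads were split between them is uncertain.

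A RefSeq promoter window (GRCm38.p6, 250 bases before to 50 after the start) was at hand for 30 of the 39 genes, and was missing for Dhx58, Zbp1, Usp18, Mx1, Mx2, Oas2, Parp9, Parp14 and Rtp4. The letters of the response element, GAAANNGAAA on either strand, were found in the windows of 14 of these 30 genes (46.7%), beside 4.0% of 27025 genes with a window. Counting only the bases before the start, 11 of 30 genes held them. The letters of the gamma-activated site, TTCNNNGAA, which reads the same on both strands, were found for 6 of 30 genes and for 9.6% of all genes. A match is only a run of letters, and its absence from a window (as for Irf7, Oasl2, Xaf1 and Lgals3bp) says nothing beyond that window.

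The stretches below were chosen because they show the element in front of 7 of the genes whose levels are given here. Capitals mark every match of GAAANNGAAA or, for the other strand, TTTCNNTTTC, including overlapping matches, and each sequence runs 5′ to 3′ toward the gene and ends before its start. They lie at chr4:156200850-156200909 (Isg15, minus strand), chr19:34640779-34640838 (Ifit1, plus), chr19:34583382-34583441 (Ifit3, plus), chr19:34607778-34607837 (Ifit3b, plus), chr5:120907526-120907564 (Oas1a, minus), chr10:128270251-128270310 (Stat2, plus) and chr8:71537562-71537621 (Bst2, minus).
Isg15: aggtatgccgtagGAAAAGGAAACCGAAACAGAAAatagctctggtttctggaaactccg
Ifit1: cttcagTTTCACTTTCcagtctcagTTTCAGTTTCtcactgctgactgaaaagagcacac
Ifit3: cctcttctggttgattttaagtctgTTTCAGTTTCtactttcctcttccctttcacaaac
Ifit3b: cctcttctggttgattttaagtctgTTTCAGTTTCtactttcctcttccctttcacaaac
Oas1a: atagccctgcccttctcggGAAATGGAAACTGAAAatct
Stat2: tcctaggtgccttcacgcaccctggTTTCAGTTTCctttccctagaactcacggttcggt
Bst2: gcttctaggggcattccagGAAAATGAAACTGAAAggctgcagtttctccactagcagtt
The Isg15 stretch held 3 overlapping matches and the Ifit1 stretch 2 separate ones, and the stretches of Ifit3 and Ifit3b were the same letter for letter.

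Departures of single libraries touch every result below, and they were seen in the values. Aged CR mouse 5 was the highest of the 12 mice for 36 of the 39 genes, against 7.88% of all tested genes. A few macrophage genes, picked after their values were seen, were far higher there as well: Marco, a scavenger receptor of macrophages, was at 310 FPKM there and at 0.0631 to 20.5 in the other 11 mice, and Cd209b, a lectin of macrophages in spleen and lymph node, was at 149 against 0 to 0.25. Siglec1, which marks macrophages and is itself raised by interferon, was at 10.4 FPKM in mouse 5 and at 1.66 to 3.19 elsewhere. The departure was not confined to macrophage genes. Several immunoglobulin genes lay far above the mean of the other 11 mice, such as Ighv1-81 (by 6.59 on the log2 scale) and Igkv3-4 (6.19). For some of them, such as Igkv4-55, another mouse was higher still. The muscle genes Tnnc1 (2.35) and Myl2 (2.19) were also among the largest gaps. A list of 10 general macrophage markers did not set mouse 5 apart, with mean deviations on the log2 scale of 0.34, 0.28 and 0.31 in aged CR mice 5, 6 and 7, and its member Cd163 was lower in mouse 5 (2.73 FPKM) than in mice 6 and 7 (10.4 and 10.3). Aged AL mouse 14 stood apart in other genes, such as the acute phase gene Saa3 (32.8 FPKM against 0.263 to 3.14 in the other mice), and had the lowest summed B cell markers (92.9 FPKM). Whether these features contribute to the interferon values was not tested. In whole bone, fewer cells of a type and less RNA per cell cannot be told apart.

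**Figure D1:**
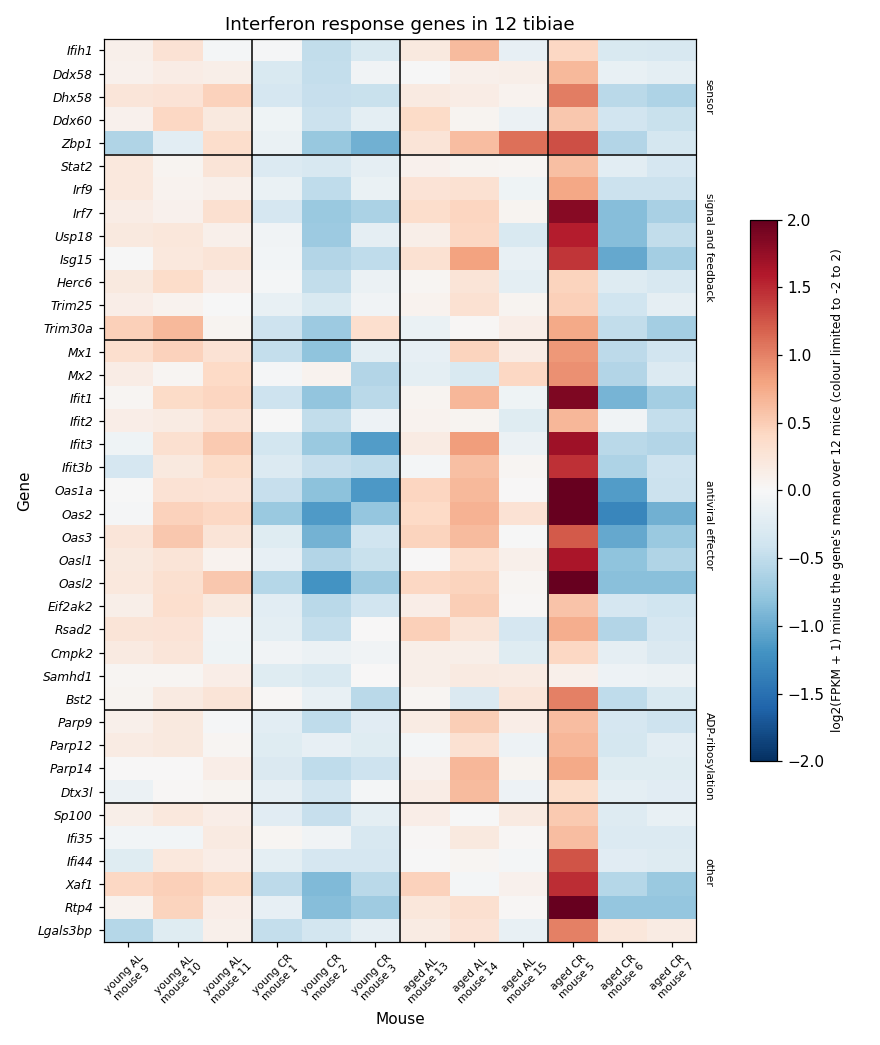
Each row is 1 of the 39 genes, ordered by role, and each column is 1 mouse. Color gives log2(FPKM + 1) minus that gene's mean over the 12 mice. The young CR columns and aged CR mice 6 and 7 are mostly blue, the AL columns are mostly pale red, and aged CR mouse 5 is red for nearly every gene.

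Under CR in young mice the response genes were lower as a group in level, without any single gene passing the adjusted test over all 12 mice. Summed over the 39 genes, FPKM was 597 to 644 in young AL mice and 405 to 491 in young CR mice. All 38 tested genes had a negative fold change, with a median log2 fold change of -0.46 (range -1.18 to -0.10), beside a median of 0.01 over all genes tested. For 28 of the 39 genes every young CR mouse lay below every young AL mouse and for 0 genes above, whereas 9.38% of all tested genes had CR mice below AL mice in this way. With limma fitted to all 12 mice, 0 of the 38 genes passed an adjusted p of 0.05 (0.0662% of all genes did), and 8 were lower at an unadjusted p under 0.05 (5.24% of all genes were). The unequal-variance test on FPKM that the study's methods describe also called 0 genes after adjustment (0% of all genes), and 22 were lower at an unadjusted p under 0.05. The share of all genes at that unadjusted p was not computed for this test, so the 22 stand without a background. With 3 mice against 3, an exact permutation test of a single gene cannot give a p below 0.1. An interferon term is among the results the study drew from these mice, so the direction of the list is not independent evidence.

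The spread in that fit is shared by the 4 groups, mouse 5 included: for Oasl2 in young mice (log2 fold change -1.18) the SE was 0.63 with mouse 5 and 0.17 without it. In a limma fit of the 6 young mice alone, which holds no aged mouse, 32 of the 38 genes were lower at an unadjusted p under 0.05. The share of all genes at that unadjusted p was not computed for this fit. After adjustment, 4 genes passed (0.545% of all genes did). They were Xaf1 (log2 fold change -1.07, SE 0.11, adjusted p = 0.0216), Dhx58 (-0.74, SE 0.09, adjusted p = 0.027), Oas2 (-1.17, SE 0.17, adjusted p = 0.0358) and Oasl2 (-1.18, SE 0.17, adjusted p = 0.0358). The fit of 11 mice without mouse 5 called the same 4 genes in the young comparison, where 0.191% of all genes passed. It uses the same 6 young mice and gives the same fold changes, with only the spread estimated otherwise, so it is not a separate result.

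Among aged mice the answer depended on mouse 5. With mouse 5 in the fit, 33 of the 38 tested genes were lower and 5 higher under CR (Lgals3bp, Ifit2, Bst2, Mx2 and Ddx58), with a median log2 fold change of -0.12 beside -0.00 over all genes. limma called 0 of them, as it called 0% of all genes, and 0 reached an unadjusted p under 0.05. The smallest p belonged to Samhd1, Lgals3bp, Parp9 (-0.31, SE 0.23, adjusted p = 0.790) and Ifih1 (-0.30, SE 0.23, adjusted p = 0.807). In the same mice, however, mouse 5 lay above every aged AL mouse for 36 of the 39 genes. Mice 6 and 7 both lay below every aged AL mouse for 35, beside 10.7% of all tested genes. Mice 6 and 7 were also below every young AL mouse for 36 of the 39 genes. For this count, and for that of mouse 5 above the aged AL mice, the share of all genes was not computed.

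Without mouse 5 the aged median was -0.59, and 37 of 38 genes were lower. The direction turned for Bst2 (0.07 with and -0.41 without mouse 5), Ifit2 (0.07 and -0.24), Mx2 (0.05 and -0.40) and Ddx58 (0.03 and -0.25). For 34 of the 38 tested genes the remaining CR mice lay below all AL mice, beside 10.7% of all genes. limma then called Oas2 (log2 fold change -1.59, SE 0.19, adjusted p = 0.0294) and Dhx58 (-0.72, SE 0.09, adjusted p = 0.0332), when 0.0515% of all genes were called. In that fit 31 genes were lower at an unadjusted p under 0.05, beside 463 of 13590 tested genes. This mouse was singled out by values that include those of the response genes, so counts made without it describe the other 11 mice and are not a separate test. They rest on 2 aged CR mice.

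**Figure D2:**
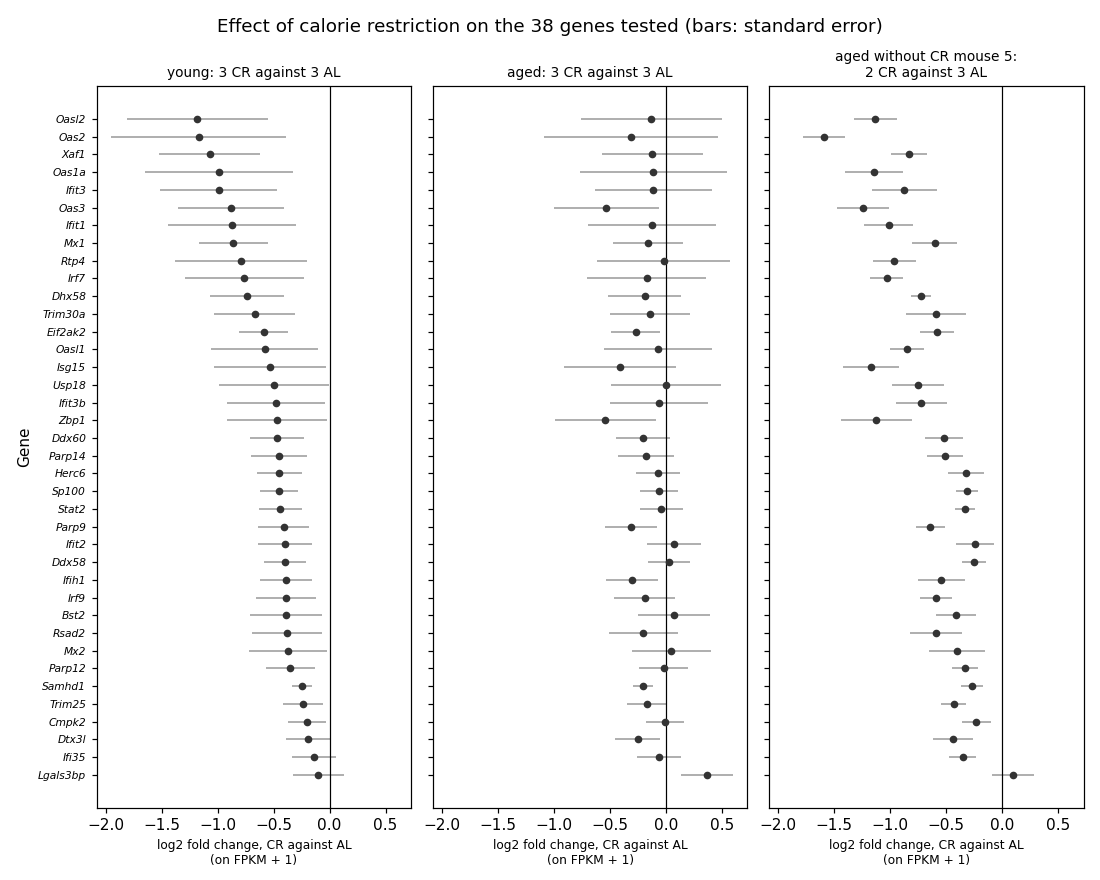
Points give the log2 fold change of CR against AL on FPKM + 1 for the 38 tested genes, with bars for the standard error, in young mice (left), aged mice (middle) and aged mice without CR mouse 5 (right). In young mice all points lie below 0, from -1.18 to -0.10. The aged points lie between -0.54 and 0.37 with mouse 5 and between -1.59 and 0.10 without it.

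Over both ages, in a comparison that uses the same mice as the previous ones, limma called 0 genes with all 12 mice (0.258% of all genes were called). The median log2 fold change was -0.32, and 4 genes were lower at an unadjusted p under 0.05, beside 876 of 13590 tested genes. The smallest p belonged to Samhd1 (-0.22, adjusted p = 0.165) and Eif2ak2 (-0.43, adjusted p = 0.264), followed by Mx1 (-0.51, adjusted p = 0.340) and Parp9 (-0.36, adjusted p = 0.360). Without mouse 5, 18 of 38 genes were called, all lower, beside 1.64% of all genes, and the median was -0.51. By role these were 1 of 5 sensors (Dhx58), 4 of 8 signaling and feedback genes (Stat2, Irf9, Irf7 and Isg15), 9 of 16 effectors (Mx1, Ifit1, Ifit3, Oas1a, Oas2, Oas3, Oasl1, Oasl2 and Eif2ak2), 1 of 4 ADP-ribosylation genes (Parp9) and 3 of 6 others (Sp100, Xaf1 and Rtp4). Dhx58 had the smallest adjusted p (log2 fold change -0.73, SE 0.06, adjusted p = 0.00114), and Oas2 the largest change (-1.38, SE 0.13, adjusted p = 0.00187). The smallest change among the 18 was that of Sp100 (-0.38, SE 0.07, adjusted p = 0.0268), and the largest adjusted p that of Ifit3 (-0.93, SE 0.19, adjusted p = 0.0453).

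The sensors comprise the RNA helicases Ddx58 (RIG-I) and Ifih1 (MDA5), their relative Dhx58 (LGP2), the helicase Ddx60, and Zbp1, which binds left-handed nucleic acid and can start necroptosis. Dhx58 was at 7.60, 7.83 and 9.02 FPKM in young AL mice and at 4.80, 4.32 and 4.34 in young CR mice. The aged mice gave 7.26, 7.10 and 6.65 under AL and 13.8, 3.99 and 3.73 under CR. Apart from mouse 5, all CR values of Dhx58 thus lay between 3.73 and 4.80, below every AL value. Ddx58 differed less (median log2 fold change of the 5 sensors in young mice -0.47, Ddx58 -0.40, SE 0.19), and ran from 4.82 to 6.65 in young CR and from 7.57 to 7.94 in young AL mice. Ifih1 was 1 of the 3 genes whose highest value was not in mouse 5: it reached 6.24 in aged AL mouse 14 and 5.20 in mouse 5.

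Zbp1 stood out among the sensors by its spread. It was at 3.31, 4.69 and 7.39 FPKM in young AL, 4.98, 2.87 and 2.36 in young CR, 6.83, 9.11 and 13.1 in aged AL and 15.1, 3.40 and 4.14 in aged CR mice. The young groups overlapped, while aged CR mice 6 and 7 lay below the 3 aged AL mice. Its log2 fold change was -0.47 (SE 0.45) in young and -0.54 (SE 0.45) in aged mice.

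Signaling and feedback genes include parts of the interferon response itself. STAT2 and IRF9 are DNA-binding partners in the responding complex, IRF7 drives further interferon production, ISG15 is a ubiquitin-like tag, HERC6 attaches it and USP18 removes it and blocks the receptor. In this role, 7 of 8 genes had all young CR mice below all young AL mice, beside 9.38% of all tested genes. All 8 had aged CR mice 6 and 7 below all aged AL mice, beside 10.7% of all tested genes.
Irf7 was at 26.0, 24.7 and 29.2 FPKM in young AL, 18.2, 13.5 and 14.6 in young CR, 29.9, 31.8 and 24.2 in aged AL and 84.8, 12.4 and 14.5 in aged CR mice. Mouse 5 had 2.67 times the Irf7 level of the next highest mouse, and no other CR mouse reached any AL mouse. Isg15, the most abundant of the 39 per unit of length in mouse 5, was at 72.0, 83.6 and 87.3 FPKM in young AL, 69.9, 48.1 and 50.8 in young CR, 89.4, 127 and 65.4 in aged AL and 196, 35.3 and 44.9 in aged CR mice. Young CR mouse 1 came within a few FPKM of young AL mouse 9, so the young groups were separate by a narrow margin.

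Usp18 was at 6.70, 6.83 and 6.20 FPKM in young AL, 5.39, 3.06 and 4.90 in young CR, 6.26, 7.89 and 4.42 in aged AL and 18.8, 2.72 and 3.74 in aged CR mice. Stat2 showed a smaller range, with 9.63, 8.58 and 9.99 in young AL, 6.61, 6.33 and 7.10 in young CR, 8.76, 8.56 and 8.40 in aged AL and 12.9, 6.93 and 6.27 in aged CR mice. Without mouse 5, Stat2 ranged from 6.27 to 7.10 in CR and from 8.40 to 9.99 in AL mice. Its change over both ages was -0.39 (SE 0.06, adjusted p = 0.0175 by limma without mouse 5). Trim30a, which restrains inflammatory signaling, was the gene of this role whose young groups overlapped, because young CR mouse 3 (19.3 FPKM) lay above young AL mouse 11 (15.7 FPKM). Irf9, Herc6 and Trim25, a ubiquitin ligase acting on RIG-I, were lower in all 3 young CR mice, by log2 fold changes of -0.39, -0.45 and -0.24 that did not pass the adjusted test.

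**Figure D3:**
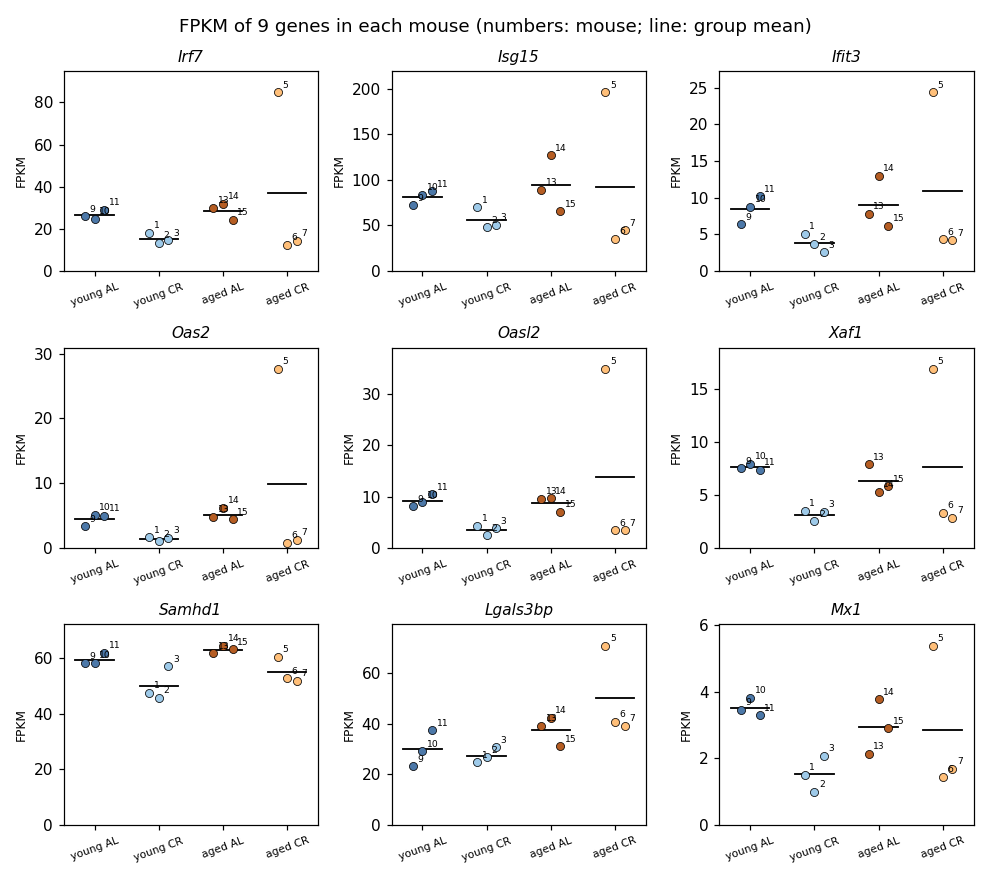
FPKM of 9 genes in each of the 12 mice, with 1 point per mouse, labeled by mouse number, and a line at the mean of the group (n = 3). For Irf7, Isg15, Ifit3, Oas2, Oasl2, Xaf1 and Mx1, mouse 5 is the highest point and the other CR mice are low at both ages. Samhd1 has no such peak in mouse 5 (60.4 FPKM), and Lgals3bp is not low in aged CR mice 6 and 7 (40.7 and 39.1 FPKM).

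The antiviral effectors were the largest role and held the largest changes, with a median log2 fold change of -0.58 in young mice. The OAS proteins make a second messenger from double-stranded RNA that switches on RNase L, and the OASL proteins are related in sequence. Oas2 was at 3.36, 5.14 and 4.92 FPKM in young AL, 1.65, 1.03 and 1.61 in young CR, 4.85, 6.16 and 4.41 in aged AL and 27.6, 0.805 and 1.29 in aged CR mice. Among the 39 genes it had the greatest excess in mouse 5, at 4.48 times the next highest mouse. Oas1a followed the same order, with 5.65, 7.14 and 7.05 in young AL, 3.83, 2.79 and 2.02 in young CR, 8.00, 9.47 and 5.69 in aged AL and 32.2, 2.06 and 3.95 in aged CR mice.
Oasl2 was at 8.12, 8.85 and 10.4 FPKM in young AL, 4.28, 2.45 and 3.81 in young CR, 9.55, 9.69 and 7.08 in aged AL and 34.8, 3.41 and 3.43 in aged CR mice. For these 3 genes, and for Oas3 and Oasl1, each CR mouse other than mouse 5 was below each AL mouse of its age.

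IFIT proteins bind viral RNA ends and block its translation. Ifit1 was at 3.42, 4.58 and 4.81 FPKM in young AL, 2.23, 1.48 and 1.94 in young CR, 3.45, 5.78 and 3.03 in aged AL and 14.7, 1.25 and 1.69 in aged CR mice. Ifit3 was at 6.38, 8.75 and 10.2 in young AL, 5.08, 3.68 and 2.59 in young CR, 7.78, 13 and 6.21 in aged AL and 24.4, 4.36 and 4.20 in aged CR mice. Its copy Ifit3b was lower in level, at 1.37, 2.42 and 2.86 in young AL, 1.49, 1.19 and 1.11 in young CR, 1.91, 3.55 and 2.08 in aged AL and 7.28, 0.946 and 1.24 in aged CR mice. The young groups were separate for Ifit1 and Ifit3 but overlapped for Ifit3b, because young AL mouse 9 (1.37 FPKM) lay under young CR mouse 1 (1.49 FPKM). Ifit2 had separate young groups (2.18 to 3.42 FPKM under CR and 3.88 to 4.48 under AL), while aged CR mouse 6 (3.26 FPKM) lay above aged AL mouse 15 (2.78 FPKM).

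Mx1, the dynamin-like GTPase that is defective in this strain, had the smallest p of the 39 genes in young mice. It was at 3.45, 3.82 and 3.29 FPKM in young AL, 1.51, 1 and 2.07 in young CR, 2.13, 3.77 and 2.90 in aged AL and 5.38, 1.44 and 1.69 in aged CR mice. The log2 fold change in young mice was -0.86 (SE 0.31, adjusted p = 0.365 by limma). Mx2, annotated as a polymorphic pseudogene, was near the level required for testing, at 1.55, 1.36 and 2.03 in young AL, 1.26, 1.42 and 0.542 in young CR, 1.01, 0.865 and 2.09 in aged AL and 3.37, 0.537 and 0.901 in aged CR mice. Its groups overlapped at both ages.

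Eif2ak2 encodes PKR, the kinase that halts translation on sensing double-stranded RNA. It was at 6.98, 8.29 and 7.49 FPKM in young AL, 5.39, 4.08 and 4.70 in young CR, 7.11, 9.42 and 6.51 in aged AL and 9.93, 4.86 and 4.63 in aged CR mice. Its log2 fold change in young mice was -0.59 (SE 0.22, adjusted p = 0.382), and mouse 5 exceeded the next highest mouse by only 1.05 times. Samhd1, which hydrolyzes deoxynucleotides, was at 58.0, 58.3 and 61.8 in young AL, 47.5, 45.6 and 57.0 in young CR, 61.6, 64.3 and 63.1 in aged AL and 60.4, 52.6 and 51.8 in aged CR mice. It was the 1 gene of the 39 for which all 3 CR mice, mouse 5 included, lay below all 3 AL mice at both ages. Among all 13590 tested genes, 143 did so. The differences were small, with log2 fold changes of -0.25 (SE 0.09, adjusted p = 0.376) in young and -0.20 (SE 0.09, adjusted p = 0.653) in aged mice.

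Rsad2 (viperin, which makes a chain-terminating nucleotide) and its neighbor Cmpk2, a nucleotide kinase, had log2 fold changes of -0.38 and -0.20 in young mice. Rsad2 was at 59.6, 60.4 and 47.2 FPKM in young AL, 43.0, 35.3 and 49.7 in young CR, 69.3, 59.4 and 39.3 in aged AL and 82.9, 32.7 and 39.2 in aged CR mice. Both genes had overlapping young groups. Bst2 (tetherin), which is also a surface marker of plasmacytoid dendritic cells, was at 57.1, 62.9 and 66.2 in young AL, 56.1, 49.6 and 37.5 in young CR, 56.8, 44.9 and 65.4 in aged AL and 112, 38.4 and 44.6 in aged CR mice. Young CR mouse 1 was just below young AL mouse 9, and aged CR mouse 7 just below aged AL mouse 14.

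Parp9 and its partner Dtx3l form a complex that modifies histones and ubiquitin, and Parp12 and Parp14 add ADP-ribose to proteins. These 4 genes had young log2 fold changes between -0.45 and -0.19. Parp9, Parp12 and Parp14 had separate young groups, whereas Dtx3l overlapped (2.57 to 3.51 FPKM in CR against 3.28 to 3.82 in AL mice) and was highest in aged AL mouse 14 at 6.17 FPKM. Parp9 was at 6.14 to 7.79 in young CR and 9.01 to 10.6 in young AL mice.

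Among the other genes, Xaf1, which promotes cell death, had a clear separation. It was at 7.54, 7.93 and 7.41 FPKM in young AL, 3.49, 2.51 and 3.41 in young CR, 7.89, 5.29 and 5.82 in aged AL and 16.9, 3.33 and 2.85 in aged CR mice. Rtp4, a chaperone of receptors, was at 33.4 in mouse 5, 3.22 times the next highest mouse, and at 3.65 to 6.45 in the other CR mice. The nuclear body gene Sp100 had a log2 fold change of -0.45 (SE 0.17, adjusted p = 0.382) in young mice, with 35.0 to 42.3 FPKM under CR and 52.7 to 56.1 under AL. Ifi35 overlapped between the young groups, as did Ifi44.

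Lgals3bp, a secreted glycoprotein that binds galectins, did not follow the rest. It was at 23.1, 29.0 and 37.3 FPKM in young AL, 24.7, 26.7 and 30.6 in young CR, 39.1, 42.2 and 31.1 in aged AL and 70.7, 40.7 and 39.1 in aged CR mice. Both young groups overlapped, and aged CR mice 6 and 7 lay among the aged AL mice. Its log2 fold change was -0.10 (SE 0.23) in young and 0.37 (SE 0.23, adjusted p = 0.744) in aged mice. As a description over the 12 mice, which share 4 groups, the Pearson correlation of a gene with the mean deviation of the other members had a median of 0.94 and was lowest for Lgals3bp (0.59). Without mouse 5 the median was 0.88, Lgals3bp was at 0.10 and Mx2 at 0.41, while Irf7, Ifit1, Oas2, Oas3, Oasl2 and Eif2ak2 were at 0.98.

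Between the ages the response genes differed little in AL mice. In AL mice, 18 genes were higher and 20 lower in aged than in young animals, with a median log2 fold change of -0.02, and limma called 0 of 38 (0.0662% of all genes were called), with 0 at an unadjusted p under 0.05. The unequal-variance test likewise called 0. Zbp1 had the smallest p (0.81, SE 0.45, adjusted p = 0.625), followed by Lgals3bp (0.33, adjusted p = 0.672), Dtx3l (0.24, adjusted p = 0.710) and Trim30a (-0.39, adjusted p = 0.738). Over both diets 0 were called (0.758% of all genes were), with Lgals3bp (0.57, SE 0.16, adjusted p = 0.133) and Zbp1 (0.78, SE 0.32, adjusted p = 0.253) at an unadjusted p under 0.05, ahead of Parp14 (0.36) and Samhd1 (0.11). The median over both diets was 0.16 with mouse 5 and -0.07 without it.

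The effect of CR in aged mice minus that in young mice had a median of 0.41 on the log2 scale over the 38 genes, and limma called 0 of them (0% of all genes), with 0 at an unadjusted p under 0.05. The smallest p belonged to Sp100 (0.38), Ddx58 (0.43), Mx1 (0.70) and Xaf1 (0.95), each at an adjusted p of 0.999. Without mouse 5 the median was -0.05, with 14 genes above 0 and 24 below, and again 0 were called. A difference between the ages in the response to CR was thus not detectable with 3 mice per group.

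Other parts of the pathway were read from lists of genes outside the 39. Of 21 interferon genes on the list, values of 4 were used (Ifnab, Ifnb1, Ifnz and Ifng), and 0 of these reached the level needed for testing. The others were not found by their listed symbols among the 29801 genes, so they could not be analysed. Ifnb1 was listed at 0 in all 12 mice, and Ifng, the type II interferon, at 0 to 0.388 FPKM, with 0.0923 in mouse 5. The 14 receptors, kinases, STATs and their inhibitors had a median log2 fold change of -0.06 in young mice, with 12 lower, 2 higher and 0 called, and 0 at an unadjusted p under 0.05.
The receptor chain Ifnar1 was at 12.7, 12 and 13.5 FPKM in young AL, 11.4, 11.9 and 12.8 in young CR, 13.3, 13.5 and 13.3 in aged AL and 12.8, 12.6 and 12.4 in aged CR mice. Jak2, a kinase of the list, had a log2 fold change of -0.15 (adjusted p = 0.564 by limma) in young mice.

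The 18 tested genes of nucleic acid sensing had a median of -0.10 in young mice, with 4 lower and 1 higher at an unadjusted p under 0.05 and 0 called. Of all 13590 tested genes, 712 were lower and 787 higher at that unadjusted p. The smallest p belonged to the transcription factors Irf8 (-0.25, SE 0.08, adjusted p = 0.286) and Irf1 (-0.21, SE 0.08, adjusted p = 0.383). In a further 58 tested interferon-induced genes the median in young mice was -0.29, with 50 lower, 8 higher and 0 called. For 27 of them all CR mice lay below all AL mice (9.38% of all tested genes did so). At an unadjusted p under 0.05, 12 were lower (5.24% of all tested genes were). Mndal, a DNA-binding protein of the interferon-inducible p200 family, came closest (-0.71, SE 0.13, adjusted p = 0.0944), before Parp11 (-0.44, SE 0.08, adjusted p = 0.113). Without mouse 5, 9 of the 58 were called over both ages, all lower, and 1 of the 18 sensing genes, beside 1.64% of all genes.

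**Figure D4:**
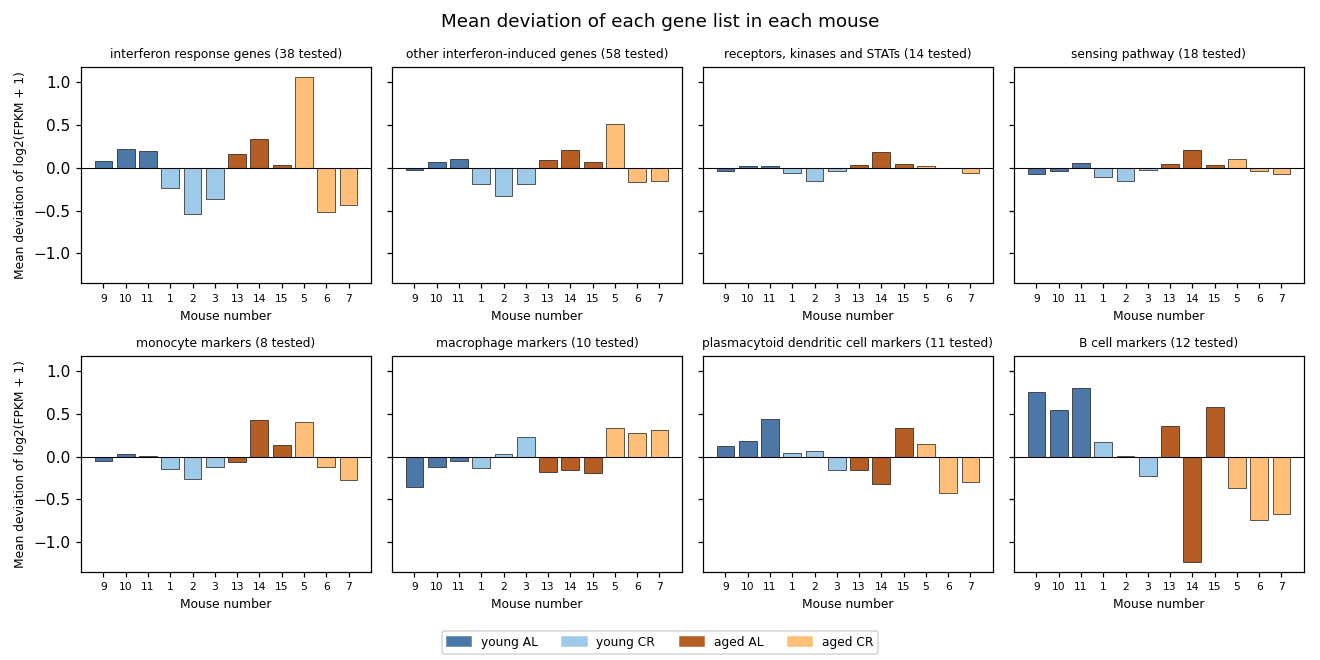
Bars give, for each mouse, the mean over a list of log2(FPKM + 1) minus the gene's mean over 12 mice. The 38 response genes stand at 1.06 in aged CR mouse 5 and at -0.24 to -0.54 in the other CR mice. The other interferon-induced genes are also highest in mouse 5 (0.51) and below 0 in the other CR mice (-0.15 to -0.33). The receptor list stays between -0.15 and 0.19. B cell markers are lowest in aged AL mouse 14 (-1.23).

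Markers of several cell types differed between groups as well, but most did not rise and fall with the response genes. As a description, the Pearson correlation of mean deviations over 12 mice was 0.85 for monocyte and 0.39 for plasmacytoid dendritic cell markers. It was 0.09 for B cell, -0.12 for macrophage and -0.56 for adipocyte markers. Without mouse 5 these 5 values were, in that order, 0.78, 0.39, 0.33, -0.75 and -0.92. The mean deviation of the 38 genes was 0.08, 0.22 and 0.20 in young AL, -0.24, -0.54 and -0.36 in young CR, 0.16, 0.34 and 0.03 in aged AL and 1.06, -0.51 and -0.43 in aged CR mice. B cell markers were lower in young CR mice, with 12 of 12 having all CR mice below all AL mice (9.38% of all tested genes did). Their summed levels were 174 to 230 against 304 to 374 FPKM. In aged CR mice 5, 6 and 7 they summed to 148, 167 and 178 FPKM, with mean deviations of -0.37, -0.74 and -0.67. Mouse 5 was thus the lowest of these by the sum and the highest by the mean deviation. Plasmacytoid dendritic cells are a main source of type I interferon, and their markers, counted with Irf8 and without Bst2, summed to 161 to 197 FPKM in young AL, 116 to 140 in young CR, 103 to 244 in aged AL and 112 to 151 in aged CR mice. Siglech, a defining marker of these cells, was at 13.3 in mouse 5 and at 4.80 and 3.54 in mice 6 and 7, and at 3.54 to 14.1 over all mice.

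Monocyte markers summed to 599 to 675 FPKM in young AL and 518 to 608 in young CR mice, and to 598 to 1064 in aged AL and 474 to 813 in aged CR mice. In mouse 5, Fcgr1, a monocyte marker that interferon can raise, was at 14 FPKM against 4.31 to 9.01 elsewhere. Macrophage markers summed to 503 to 684 FPKM in young AL and 631 to 737 in young CR mice, ranges that overlap, and 0 of 10 were called by limma or reached an unadjusted p under 0.05. In aged mice they summed to 597 to 972 under AL and 841 to 1037 under CR, highest in mouse 5. There 5 of 10 were higher at an unadjusted p under 0.05, beside 611 of 13590 tested genes, and 0 were called. Adipocyte markers summed to 332 to 371 FPKM in young AL and to 624 to 844 in young CR mice, with 1 of 9 called, higher. The part of these cell types in the values of the response genes was not tested.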

How the data were processed

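RNA was extracted from frozen, powdered whole tibia and sequenced as stranded messenger RNA. Per the submitters' processing notes and the study's methods, the authors checked reads with FastQC 0.11.8 and MultiQC 1.6, trimmed adapters with Trim Galore 0.5.0, aligned to mm10 with STAR 2.6.1 and computed FPKM with StringTie 2.1.3b, with R 4.1.1 for the matrix. The deposited FPKM values had then been quantile-normalized: the 12 columns sum to 636207 to 636212, and values of the same rank differ by at most 0.00936 FPKM. In all, 48 libraries are labeled, since every mouse was run as 4 technical repeats. Only 1 column per mouse was in the table, made from the repeats in a way not given in the sources used here, and the mouse was the unit of every count and test. Columns were tied to groups by a number in the labels. No counts were used, so depth is unknown and no counting interval could be given. Quantile normalization also removes differences in the overall distribution between mice.

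Values were analysed as log2(FPKM + 1), so fold changes of low genes are understated. Genes with a mean of 1 FPKM or more were fitted with limma 3.58.1 in R 4.3.3 (1 mean per group, variance trend, Benjamini-Hochberg adjustment over all 13590 genes, call at adjusted p under 0.05). Fits took all 12 mice, also for comparisons within an age, unless the text names the mice left out or the 6 young mice alone. The fit was tested on simulated data. Gene starts and ends came from GENCODE release 21, which held 99.2% of the identifiers. Promoter windows came from RefSeq. Values per mouse are given for 17 genes fixed by name (the rule adds genes called with 12 mice, of which there were 0). They are also given for Dhx58, Xaf1 and Oas2, which were called within an age without mouse 5. Other genes called only over both ages without mouse 5, such as Irf9 and Rtp4, were not added. Test values are given for the 4 genes with the smallest p in each comparison and for some of the genes called in other fits. The remaining values (ranges of other members, markers, and macrophage, immunoglobulin and muscle genes) were chosen after values were seen. The list of 39 genes and the pathway and marker lists were chosen with earlier results of these data known. Alternatives were another pseudocount, other filters, size-factor scaling, quality weights, fits of the groups compared, the unequal-variance test on FPKM, leaving out each mouse and, added after seeing the data, leaving out mice 5 and 14 together. P-values set the difference between groups against the spread between mice, which limma pools over all groups of a fit. Correlations over mice are given as description without p. The values of 1 gene outside the 39 are not reported here.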

Additional observations from a re-analysis of the deposited data

How the results depend on the processing

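For the 4 genes with the smallest p in each comparison, no setting reversed the direction, and 443 of 456 values kept their side of the threshold, while 13 newly passed it. Other genes did turn, such as Bst2, Ifit2, Mx2 and Ddx58 in aged mice without mouse 5. Of 217 counts and medians under other settings, 205 stayed within the limits set (1.5 times for counts, 1 SD for medians). These limits are wide. Many counts compared 0 with 0, and the SD was that of the genes' mean level between mice within groups, mouse 5 included. A median could thus change sign and still count as the same, as in aged mice without mouse 7 (-0.12 to 0.12). With a quality weight per mouse, 1 gene was called lower in young mice (2.24% of all genes were called), 5 lower over both ages (6.79%) and 1 (Lgals3bp) higher with age over both diets (13.2%). With only the groups compared in the fit, 4 were called in young mice. Without aged CR mouse 5 and aged AL mouse 14 together, an alternative chosen after seeing the data, 11 were called in young mice (1.18% of all genes), 4 in aged mice (0.361%) and 20 over both ages (3.25%), all lower. Leaving out 1 mouse at a time, the count was 0 to 4 in young mice, 0 to 2 in aged mice and 0 to 18 over both ages, in each case highest without aged CR mouse 5, and 0 throughout for the age comparisons and the difference between ages. The median log2 fold change ran from -0.59 (without mouse 5) to 0.12 (without mouse 7) in aged mice and that of the difference between ages from -0.05 (without mouse 5) to 0.57. A pseudocount of 0.1 FPKM, both other filters and size-factor scaling called 0 genes in every comparison, as did the unequal-variance test in the 3 comparisons of 2 groups. Counting only bases before the start, 11 genes in place of 14 held the response element. No paired analysis was possible because mouse numbers are not shared between groups and the repeat numbers in the labels mark repeats of 1 mouse. The study describes its controls as littermates, but the labels name no litter, so relatedness between mice could not be taken into account. The absence of counts, 3 mice per group and the quantile normalization limit what can be called. The groups left with 2 mice were assumed to vary like the others.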
